A study of Mus musculus with 6 samples.

Results

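Semaphorins are guidance cues, plexins are their main receptors and neuropilins are coreceptors that many secreted semaphorins need. All genes whose symbol starts with Sema were taken, with 8 plexins (Plxna1 to Plxna4, Plxnb1, Plxnb2, Plxnc1 and Plxnd1) and both neuropilins, Nrp1 and Nrp2. This gave 30 of 24411 genes, 20 of them semaphorins, with 63 of 35034 transcripts. The rule used gene symbols. Of the 30 genes, 28 had 10 or more counts in total over all libraries, and Sema3b with 8 counts and Sema3g with 3 did not.

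Class 3 semaphorins are secreted and bind neuropilins, which hold class A plexins in the receptor and have no signalling domain of their own. Class 4 to 6 semaphorins span the membrane, class 7 is held by a lipid anchor, and most of these bind plexins directly. The inner part of a plexin acts on small GTPases and through them on the actin and microtubule skeleton of the growth cone. In the corpus callosum, Sema3a and Sema3c with Nrp1 are known to guide cortical axons toward and across the midline.

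RNA was sequenced from corpus callosum, cut by hand from 60 µm frozen brain sections of B6 mice on postnatal day 4. There were 3 WT libraries and 3 libraries of the genotype Mettl14 cKO, a conditional knockout of a subunit of the methyltransferase behind N6-methyladenosine (m6A), a mark on RNA. The tissue was chosen for its callosal axons, and the series title names transport of neuronal mRNA out of the soma as the subject. With the Cre line and control alleles not given in the sources used here, and no label saying that libraries came from different animals, the p-values describe the scatter among these 6 libraries, which may be technical.

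Total expected counts ran from 670462 to 1268430 per library. CPM here means counts scaled to the library total with TMM factors, on which 1 count equals 0.803 to 1.41 CPM. The targeted gene Mettl14 had 11, 8 and 5 counts in WT replicates 1 to 3 and 2, 7 and 2 in cKO, and the groups overlapped (exact two-sided permutation p = 0.3, where 0.1 is the smallest possible). Xist had 0 counts in WT and 2323 to 4618 in cKO, and the Y-linked Eif2s3y had 51 to 80 in WT and 0 in cKO, so genotype and this sex-linked difference cannot be told apart. Cell type markers also differed. The summed level of 8 excitatory cortical neuron markers was 397 to 925 CPM in WT and 5450 to 6280 CPM in cKO, and 4 of the 8 had higher, non-overlapping groups (Neurod2 was at 0 in WT). Tbr1, Slc17a7, Slc17a6 and Cux1 had overlapping groups, and the cKO mean was lower for Slc17a7 and Cux1 and higher for Tbr1 and Slc17a6. For 10 markers of myelinating oligodendrocytes the sum was 2550 to 4130 CPM against 2 to 10.8 CPM, with 8 lower. Mag, Myrf, Enpp6 and Cldn11 were at 0 in every cKO library. Mobp was at 0 in all 6 libraries, and Mog had only 1 count, in WT replicate 3. Markers of oligodendrocyte precursors summed to 4110 to 4560 against 549 to 1310 CPM (6 of 8 lower), and those of astrocytes to 8500 to 9850 against 1810 to 2810 CPM (6 of 8 lower). For 6 endothelial markers it was 83.8 to 171 CPM against 29 to 47.1 CPM, with 4 lower and Cldn5 at 0 in all 6 libraries. The sum of inhibitory neuron markers went the other way from the excitatory sum, with 820 to 1270 CPM in WT and 29.7 to 642 CPM in cKO (3 of 8 lower, Slc32a1 at 0 in all 6 libraries). The low end was cKO replicate 3, where Dlx1 had 1.415 CPM against 327 and 281 in cKO replicates 1 and 2. Markers of microglia summed to 195 to 570 against 110 to 332 CPM, with overlapping groups (1 of 6 lower, Csf1r). P2ry12 was at 0 in cKO and in WT replicates 1 and 2, with 53 counts in WT replicate 3. The part of these differences in the results below was not tested, and in such bulk tissue fewer cells of a type and less RNA per cell cannot be told apart.

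Sema3c, a secreted cue that attracts cortical axons, was the 1 member that rose in the edgeR test. It stood at 13.5, 8.84 and 16.3 CPM in WT replicates 1 to 3 and at 535, 556.5 and 1314 CPM in cKO replicates 1 to 3. Each cKO library lay far above the highest WT library, and cKO replicate 3 was the highest. The log2 fold change was 5.95 (SE 0.59, n = 3 per group), from 37 pooled WT counts to 1883 cKO counts (edgeR quasi-likelihood, adjusted p = 0.0147). The call was lost with the replicate block (edgeR adjusted p = 0.109) and without both replicate 2 libraries (0.142). It was also lost in 4 of 6 fits that left out 1 library. Over all genes, edgeR called 1 higher and 0 lower with the block, and 0 and 0 without both replicate 2 libraries. It called 1 and 0 without WT replicate 1, and 13 and 8 without WT replicate 2. Without WT replicate 3 or cKO replicate 1 it called 0 and 0. In the main test 0.49% of all tested genes were called higher and 0.912% in either direction. On the TPM scale, which is per length, Sema3c went from rank 18 of the 30 members in WT (3.75 ± 0.871, SD, n = 3) to rank 1 in cKO (243 ± 176).

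Sema3c lies on chromosome 5 (17574281 to 17730268, GRCm38, plus strand) and its deposited transcript matches a GENCODE transcript of 18 exons. The letters GGACT are the commonest core of the m6A consensus, so their matches in the coding sequence are shown here, in capitals, with 12 bases on each side. A match is a description of the letters and does not show that the base is methylated. Only coding sequences were searched, here and for the densities below, and untranslated regions and the stop codon were left out. The coding sequence of 2253 bases held 5 matches, read on the coding strand, at coding positions 1173, 1566, 1879, 1915 and 2181 counted from the first base of the start codon. The first lies in exon 12, the second in exon 15 and the rest in exon 18.
Sema3c site 1, chr5:17694684-17694688: gagaaccaccaaGGACTtcccagatgacg
Sema3c site 2, chr5:17716991-17716995: cacagcctgtgcGGACTgctgcttggcga
Sema3c site 3, chr5:17727379-17727383: gctacttcccaaGGACTactgattcgctc
Sema3c site 4, chr5:17727415-17727419: gattctgaccaaGGACTctaccactgcat
Sema3c site 5, chr5:17727681-17727685: gaagatgagaggGGACTatggcaagctga

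That is 2.22 matches per 1000 coding bases. Over the 30 members the median was 1.29, against 1.06 over 5570 tested genes with a matched coding sequence. Plxna2 held 13 matches (2.29 per 1000 bases) and Sema3b 6 (2.67), while Sema3d held none. At least 1 match was found in 96.7% of the members and in 79.8% of those tested genes. Longer sequences hold more matches by length alone, and the members' coding sequences ran from 1992 bases in Sema7a to 6357 in Plxnb1.

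**Figure D1:**
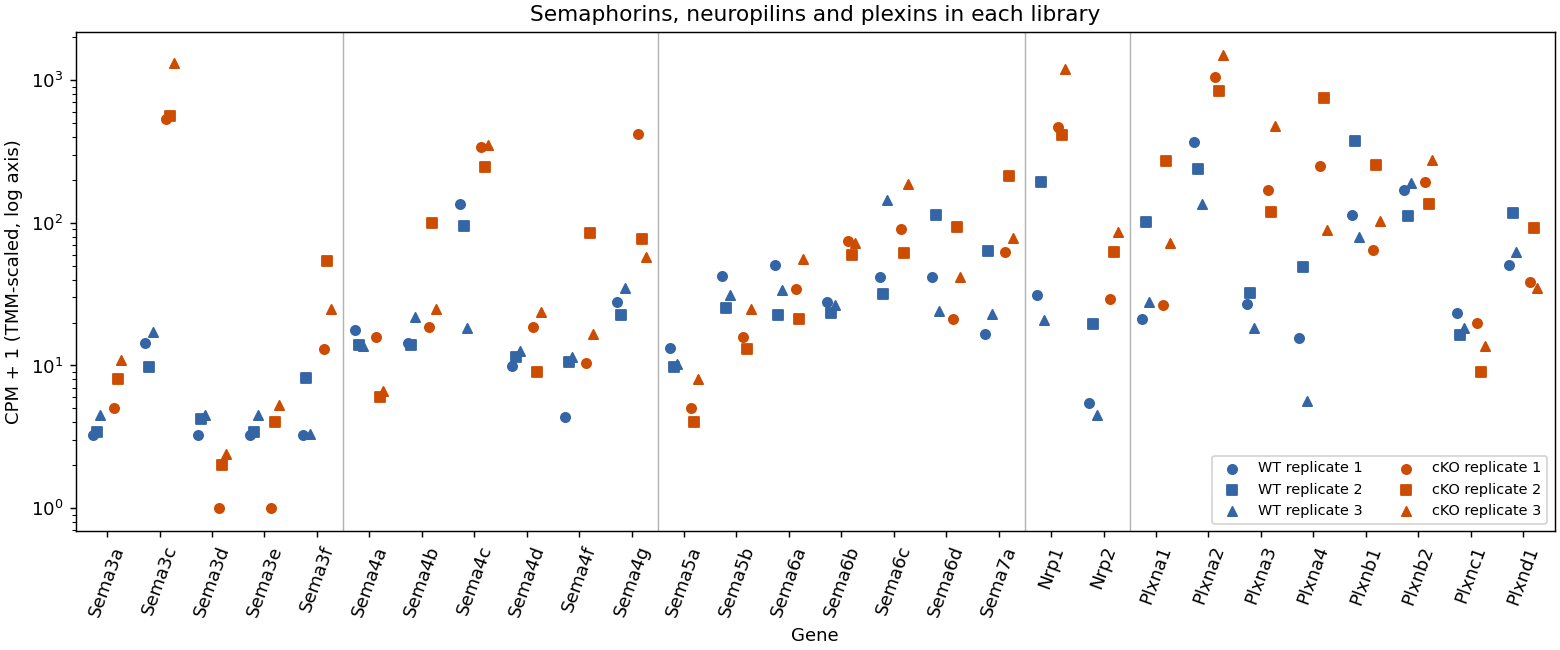
CPM plus 1 of the 28 members with 10 or more counts in total, on a log axis, by gene (horizontal, grouped by role with grey lines); each point is 1 library, blue for WT and orange for cKO, with circle, square and triangle for replicates 1 to 3. Sema3c shows the widest gap, from 8.84 to 16.3 CPM in WT against 535 to 1314 CPM in cKO, and several plexins are high in both replicate 2 libraries.

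The other class 3 genes were scarce in both groups. Sema3f, a repellent that acts through Nrp2, had 2, 9 and 2 counts in the WT libraries against 9, 53 and 17. In CPM its groups did not overlap, and pooled counts were 7.43 times as high in cKO (95% counting interval 4.1 to 14.6, counting error only). It lay below the filter, and without a filter edgeR gave an adjusted p of 0.46, with 0.244 to 0.553 over its alternatives. Sema3a, the classic repellent of cortical axons, had 2, 3 and 3 counts against 3, 7 and 7, at 2.6 times (1.06 to 6.95). Its groups did not overlap in CPM either (exact permutation p = 0.1, the smallest possible). That gap came from the scaling alone, since WT replicate 3 and cKO replicate 1 both had 3 counts. Sema3d had 2, 4 and 3 counts against 0, 1 and 1, groups that did not overlap but lie at the floor of 3 counts. Sema3e had 2, 3 and 3 against 0, 3 and 3, Sema3b 0, 1 and 2 against 2, 2 and 1, and Sema3g 0, 0 and 2 against 0, 1 and 0. Of the 7 class 3 genes Sema3c alone passed the filter, so at this depth little can be read about the other 6.

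Among the class 4 genes, Sema4c had the highest level. This transmembrane ligand of Plxnb2 had 135, 94 and 17.5 CPM in WT and 341.5, 246 and 351 CPM in cKO. WT replicate 3 was far below the other WT libraries, and the groups did not overlap. The log2 fold change was 1.93 (SE 0.74), which did not pass (edgeR adjusted p = 0.354). Without WT replicate 3 it was 1.44. Sema4g had 27, 21.7 and 33.8 CPM in WT and 417, 76.1 and 56.6 CPM in cKO, and its log2 fold change was 2.73 (SE 0.89, edgeR adjusted p = 0.267). A single library, cKO replicate 1, carried most of that mean, and without it the log2 fold change was 1.21. Sema4b had 13.5, 12.9 and 20.9 CPM in WT and 17.5, 98.1 and 24.1 CPM in cKO. Its log2 fold change of 1.57 (SE 0.73) came mostly from cKO replicate 2 and was 0.4 without it. Sema4a, at -0.75 (SE 0.49), also had overlapping groups. Sema4d, a ligand of Plxnb1, had 8, 13 and 10 counts in the WT libraries against 13, 8 and 16. Sema4f had 3, 12 and 9 counts against 7, 84 and 11, so its higher cKO total came from cKO replicate 2.

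Sema6b, a transmembrane ligand of class A plexins, had closely spaced libraries within each group. It stood at 27, 22.5 and 25.6 CPM in WT and 73.9, 58.05 and 70.7 CPM in cKO, with means of 25 ± 2.29 against 67.6 ± 8.4 CPM (SD, n = 3). The groups did not overlap, and the log2 fold change of 1.43 (SE 0.4) did not pass (edgeR adjusted p = 0.225). Sema5b had 41.6, 24.1 and 30.3 CPM in WT and 14.8, 12.01 and 24.05 CPM in cKO. Its lowest WT library, at 24.1, lay barely above its highest cKO library, and on the RLE and TPM scales the groups overlapped. Its log2 fold change was -0.92 (SE 0.44, edgeR adjusted p = 0.457). Sema5a had 11, 11 and 8 counts in the WT libraries against 3, 3 and 5, groups that did not overlap in CPM (pooled ratio 0.448, 0.203 to 0.92), and lay below the filter.

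The remaining class 6 and 7 genes had overlapping groups. Sema7a, the lipid-anchored ligand of Plxnc1, had 15.7, 62.7 and 22.1 CPM in WT and 61.9, 213 and 77.8 CPM in cKO. The lowest cKO library lay just under WT replicate 2 (log2 fold change 1.8, SE 0.78, edgeR adjusted p = 0.42). The value was 1.05 without cKO replicate 2 and 2.63 without WT replicate 2. Sema6c was high in replicate 3 of both groups, with 40.4, 30.5 and 144 CPM in WT and 90.1, 60.05 and 187 CPM in cKO. Sema6a, a ligand of Plxna2 and Plxna4, had 34.6 ± 14 CPM in WT and 36.3 ± 17.7 in cKO. Sema6d, a ligand of Plxna1, had 58.7 ± 47.3 and 51.4 ± 37.6 CPM.

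Both neuropilins were higher in every cKO library than in any WT library, without passing the test. Nrp1, the coreceptor of Sema3a and of vascular endothelial growth factor, had 30.3, 192 and 19.8 CPM in WT and 471, 412 and 1190 CPM in cKO. WT replicate 2 stood 7.66 times above the mean of the other WT libraries. The log2 fold change was 3.09 (SE 0.98, edgeR adjusted p = 0.266), and without WT replicate 2 it was 4.77. Nrp1 was second among the members on the TPM scale in cKO, at 174 ± 139 (SD, n = 3), against 20.7 ± 25.5 in WT. Nrp2, the coreceptor of Sema3f, had 4, 23 and 3 counts in the WT libraries against 21, 61 and 60, and its log2 fold change was 2.66 (SE 0.78, edgeR adjusted p = 0.241), or 3.81 without WT replicate 2. Nrp1 acts in cortical axons and is also expressed by endothelial cells. As given above, the summed markers of excitatory cortical neurons were higher in cKO and those of endothelial cells lower. What part such differences had in the neuropilin levels was not tested.

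Of the class A plexins, which signal for neuropilin-bound semaphorins, Plxna2, Plxna3 and Plxna4 had groups that did not overlap. Plxna2 had 365, 238 and 135 CPM in WT and 1054, 841 and 1504 CPM in cKO, the highest mean CPM of any member in cKO. Its log2 fold change was 2.2 (SE 0.45, edgeR adjusted p = 0.119), and leaving out 1 library at a time moved it between 1.9 and 2.6. Plxna3 had 25.8, 31.3 and 17.5 CPM in WT and 169, 118 and 475 CPM in cKO. Its log2 fold change was 3.34 (SE 0.71, edgeR adjusted p = 0.141), or 2.54 without cKO replicate 3, its highest library. Plxna3 lies on the X chromosome (74329066 to 74344689, GRCm38), the chromosome from which Xist is transcribed. Plxna4, a plexin through which Sema3a and Sema6a act, had 14.6, 48.2 and 4.66 CPM in WT and 249, 749 and 87.7 CPM in cKO. Its libraries were spread widely in both groups, and its log2 fold change was 3.99 (SE 1.14, edgeR adjusted p = 0.238). It was 2.89 without cKO replicate 2 and 5.21 without WT replicate 2. Plxna1 had overlapping groups, with 20.2, 100.4 and 26.8 CPM in WT and 25.5, 271 and 70.7 CPM in cKO.

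The class B, C and D plexins had overlapping groups, with log2 fold changes from -0.49 to 0.36. Plxnb2, the member with the highest mean TPM in WT (34.3 ± 6.9), had 168.5, 111 and 189 CPM in WT and 191, 134 and 274 CPM in cKO (log2 fold change 0.36, SE 0.47). Plxnb1, the receptor of Sema4d, had 112, 377 and 79.2 CPM in WT and 63.2, 255 and 102 CPM in cKO (log2 fold change -0.43, SE 0.8). Plxnd1, which Sema3e binds without a neuropilin and which is known in vessels, had 75.6 ± 35.2 and 54.2 ± 32 CPM (-0.48, SE 0.62). Plxnc1, the receptor of Sema7a, had 18.4 ± 3.69 and 13.2 ± 5.42 CPM (-0.49, SE 0.41). A p above the threshold does not show that these levels are the same.

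**Figure D2:**
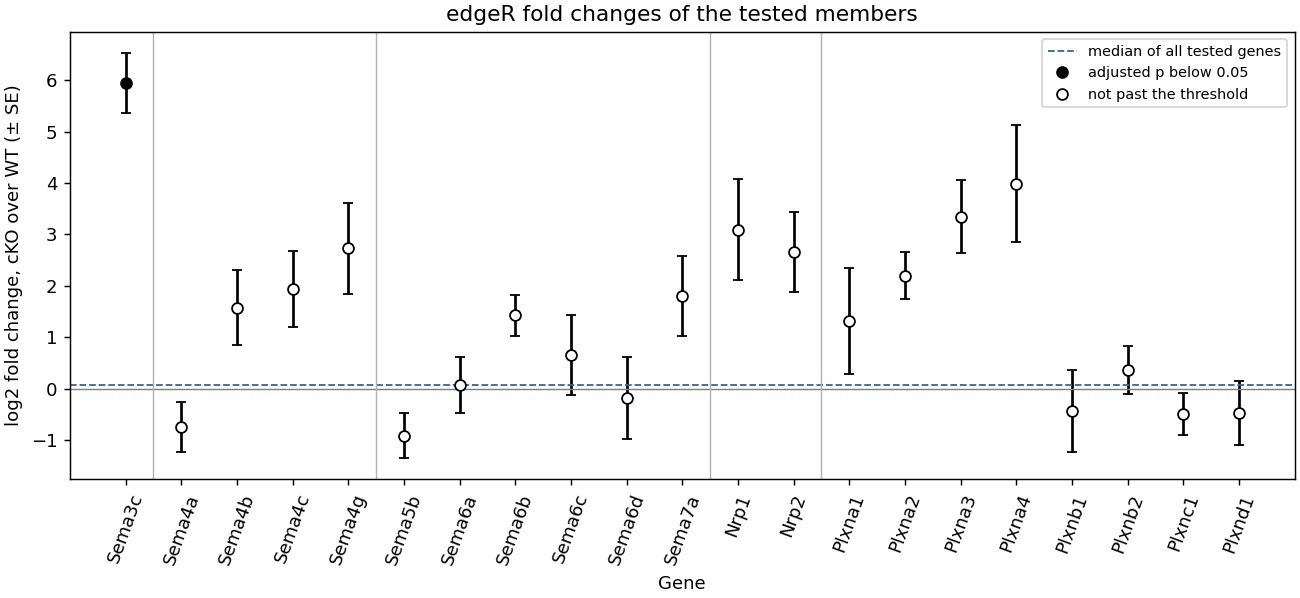
Log2 fold change of cKO over WT with its SE (vertical) for the 21 members that passed the filter (horizontal, grouped by role); the filled point passed an adjusted p of 0.05, open points did not, and the dashed line is the median of all tested genes. Sema3c at 5.95 is the one filled point, both neuropilins and Plxna2 to Plxna4 lie at 2.2 to 3.99, and the class B, C and D plexins lie near 0.

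Of the 30 members, 21 passed the filter of the test (edgeR filterByExpr) and 9 did not. Among those 21, 1 was called higher and 0 lower, where 0.49% and 0.422% of 5918 tested genes were called. Without adjustment, 9 had a p below 0.05 with a higher cKO level and 0 with a lower one, where the shares of all tested genes were 7.16% and 5.41%. These were Sema3c, Plxna2, Plxna3, Sema6b, Plxna4, Nrp2, Nrp1, Sema4g and Sema4c. All 9 had higher, non-overlapping groups, which 10.4% of all tested genes had, and Sema5b was the 1 tested member with lower ones, against 9.45%. The median log2 fold change of the 21 was 1.43 and that of all tested genes 0.07. A gene that is high in one group passes the filter more easily, so these figures describe the 21 and not all 30. With DESeq2, 8 of the 21 were called higher and 0 lower, against 4.28% and 3.06% of all genes with an adjusted p.

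The 8 were the genes named above without Sema4c, and both tools read the same counts. The DESeq2 adjusted p was 2.67e-05 for Plxna2, 4.91e-05 for Plxna3, 0.00155 for Plxna4, 0.00505 for Sema6b, 0.00744 for Nrp1, 0.0103 for Nrp2 and 0.0209 for Sema4g. DESeq2 gave the lowest adjusted p of each of these 7 over all alternatives, and the highest ran from 0.372 for Plxna2 to 0.657 for Sema6b. For Sema3c it ran from 2.26e-25 with DESeq2 to 0.142. In edgeR, Sema3c lost its call without WT replicate 1 (adjusted p = 0.119), WT replicate 2 (0.0649), WT replicate 3 (0.114) or cKO replicate 1 (0.0873), and kept it without cKO replicate 2 (0.0476) or 3 (0.0327). Its log2 fold change stayed between 5.41 and 6.16 under all 17 alternatives.

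**Figure D3:**
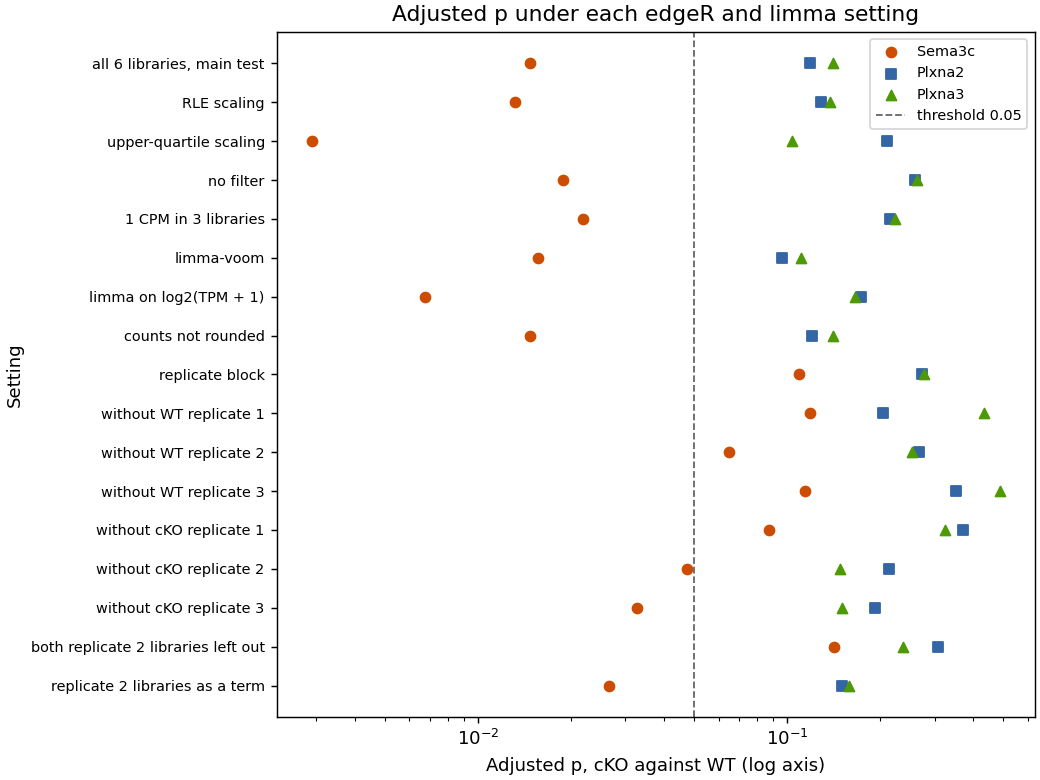
Adjusted p for cKO against WT (horizontal, log axis) of Sema3c, Plxna2 and Plxna3 under the main test and each edgeR or limma alternative (vertical); the dashed line marks 0.05. Sema3c lies below 0.05 with all 6 libraries except with the replicate block. It lies above 0.05 when WT replicate 1, 2 or 3, cKO replicate 1 or both replicate 2 libraries are left out. Plxna2 and Plxna3 stay above 0.05 in all settings drawn, and DESeq2 is not drawn.

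Several members were high in the replicate 2 library of both groups. The replicate 2 libraries of both groups were the deepest, with mean fragment lengths of 304.3 and 292.7 bases against 332.4 to 350.5 in the others. In 6 of the 21 tested members replicate 2 lay more than 2-fold above the mean of the other libraries in both groups, where 12.7% of all tested genes did. These were Plxna1, Plxna4, Plxnb1, Plxnd1, Sema6d and Sema7a, with ratios from 2.08 to 5.64. Plxnb1 was 3.94 times as high in WT replicate 2 and 3.09 times in cKO replicate 2, which is more than its difference between genotypes. With a term for the replicate 2 libraries, chosen after seeing the data, Sema3c kept its call (log2 fold change 5.95, edgeR adjusted p = 0.0265) and no other member passed. Over all 5918 tested genes, 11 were called higher and 8 lower with that term. With both replicate 2 libraries left out, 0 of the 22 members tested there passed in edgeR, and 0 of all 6011 tested genes did. Before adjustment 8 of these 22 had p below 0.05, beside 740 of 6011 tested genes. This subset was run with edgeR alone. There Sema3c stood at 5.95 with an edgeR adjusted p of 0.142.

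**Figure D4:**
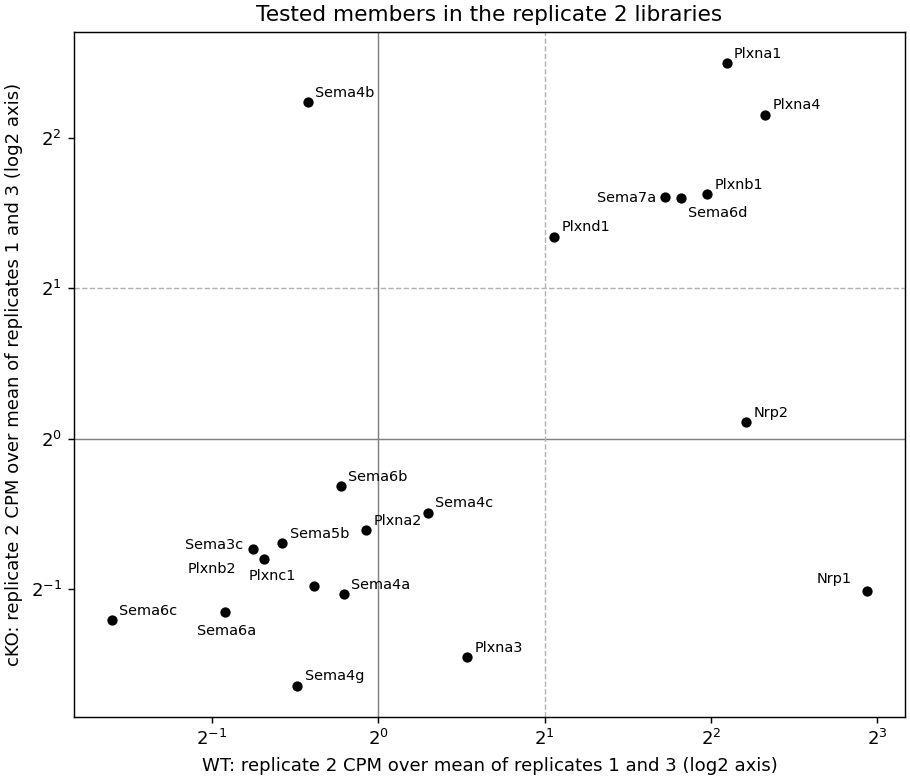
CPM of replicate 2 over the mean of replicates 1 and 3, in WT (horizontal) and in cKO (vertical), both on log2 axes, for the 21 tested members; solid lines mark a ratio of 1 and dashed lines 2. Plxna1, Plxna4, Plxnb1, Plxnd1, Sema6d and Sema7a lie above 2 in both groups, and Nrp1 and Nrp2 in WT only.

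The deposited tables give values per transcript, and 5 members with several transcripts had at least 10 counts in every library. The share of the leading transcript passed a test between groups in none of the 5 (exact two-sided permutation p from 0.4 to 1, where 0.1 is the smallest possible, adjusted p = 1). Plxnb2 shows how the estimate behaved. Its transcript of 6450 bases was given all counts in WT replicates 1 and 2 and in cKO replicate 2, 22.4% in WT replicate 3, 11.9% in cKO replicate 1 and 0 in cKO replicate 3. The rest went to a transcript of 6500 bases. Leading shares of Sema4c were 69.1% ± 36.2 in WT and 80.3% ± 17.4 in cKO (SD, n = 3), and those of Sema6c 72.3% ± 11.2 and 67.3% ± 20.5. Nrp2, with 6 deposited transcripts, had its cKO counts on 1, 2 and 3 transcripts in replicates 1 to 3, with too few counts in WT for a comparison.

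**Figure D5:**
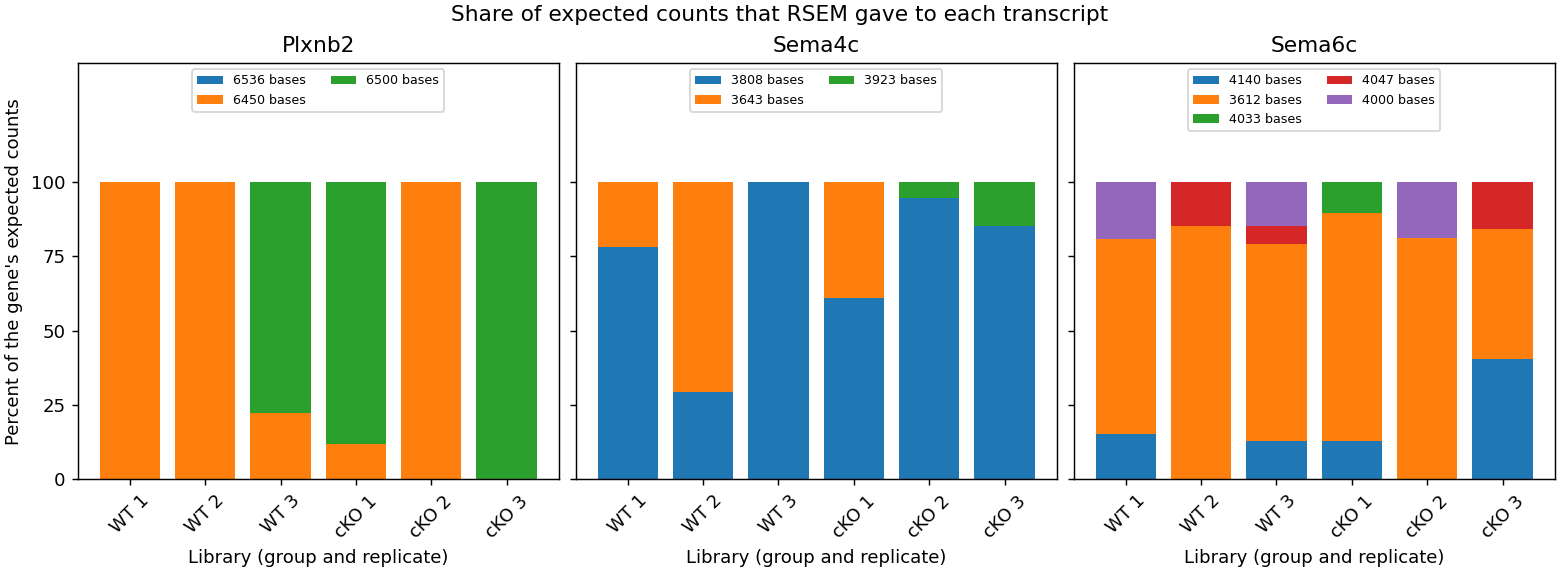
Percent of each gene's expected counts (vertical) given to each transcript, named by its length, in each library (horizontal) for Plxnb2, Sema4c and Sema6c. The 6450-base transcript of Plxnb2 goes from all counts to none between libraries of the same group.

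Other genes of the pathway were taken from a list of 55 receptor partners, GTPases, kinases and cytoskeleton effectors. With edgeR 0 of the 43 tested were called, and 4 higher and 3 lower had an unadjusted p below 0.05, beside 7.16% and 5.41% of all tested genes. DESeq2 called Cntn2, L1cam and Dpysl5 higher and Fyn lower, beside 4.28% and 3.06% of all genes. Their median log2 fold change was -0.05, beside 0.07 over all tested genes. The partners with the smallest p on the higher side were Cntn2, L1cam, Dpysl5 and Cdk5r1. Cntn2, an adhesion protein of axons, had 224, 169 and 27.9 CPM in WT and 2470, 1551 and 4767 CPM in cKO (log2 fold change 4.38, SE 0.84, edgeR adjusted p = 0.105, with 7.71e-09 to 0.292 over the alternatives). L1cam, which binds Nrp1 in the Sema3a receptor, had 233 ± 62.4 and 622 ± 70.1 CPM (1.42, SE 0.33, edgeR adjusted p = 0.171), and like Plxna3 it is X-linked. Dpysl5, a CRMP protein, stood at 0.64 (SE 0.21) and Cdk5r1, the activator of the kinase Cdk5, at 3.42 (SE 1.4). Cdk5r1 had 0 CPM in WT replicate 1 and 161 and 214 in the other WT libraries.

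On the lower side, the vascular receptors Flt1 and Kdr, partners of neuropilins for vascular endothelial growth factor, stood at -1.55 (SE 0.44) and -1.53 (SE 0.53). Kdr had 52.6 ± 31.7 CPM in WT and 18.2 ± 2.08 in cKO, and stood at -0.91 without WT replicate 2. Both are also on the endothelial marker list given above. The kinase Fyn, which acts downstream of Sema3a, had 1079 ± 97.3 and 712 ± 24.5 CPM (-0.6, SE 0.21), and the GTPase Rhoa 548 ± 127 and 270.5 ± 111 CPM (-1.02, SE 0.43). None of these 8 passed in edgeR with TMM scaling, and DESeq2 called 4 of them, with adjusted p of 7.71e-09 for Cntn2, 0.000177 for L1cam, 0.00336 for Fyn and 0.0454 for Dpysl5. Over the alternatives the adjusted p of L1cam reached 0.501, that of Fyn 0.585 and that of Dpysl5 0.889. By group, the 10 tested partner receptors had a median of -0.35, the 13 GTPases and regulators -0.45, the 9 kinases 0.08 and the 11 cytoskeleton effectors 0.14.

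On the TPM scale the order of the members differed between the genotypes. In WT, Plxnb2 (34.3), Sema4c (33.6), Plxnb1 (32.4) and Plxna2 (31.8) led and did not differ beyond their spread. In cKO, Sema3c (243 ± 176), Nrp1 (174 ± 139), Plxna2 (144 ± 66.9) and Sema4c (121 ± 36.6) led, again within each other's spread (SD, n = 3). Sema4g (56.6), Plxna3 (54.9) and Sema7a (51.1) came next in cKO. Plxnb1 went from rank 3 to 12 and Plxnd1 from 7 to 19, and neither passed the test.

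Plxna1, Plxna4, Plxnb1 and Sema4c share 970, 110, 257 and 334 exon bases with a gene on the other strand in the GENCODE annotation. Plxnc1 shares 115 with a gene on its own strand. None of these overlapping genes had a row in the deposited data. Nrp1 and Sema4a share 80 and 73 bases with microRNA genes on the same strand, which had 0 counts. The labels name the NEBNext Ultra RNA kit, which in its non-directional form does not mark strand, and the strand setting of the counting is not known here. Reads from these stretches may therefore not be separable by gene. All members have 14 to 38 exons.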

How the data were processed

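Polyadenylated RNA of 3 WT and 3 Mettl14 cKO libraries was sequenced; group and replicate number were read from the titles. Per the submitters' processing notes, STAR 2.7.10b, RSEM 1.3.3 and mm10 were used, with annotation, the strand setting of the counting and filters not given in the sources used here. The authors deposited expected counts, RSEM's estimate of fragments per transcript, and TPM, which is scaled to length and library total. Both were summed per gene, and counts were rounded before testing.

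Genes passing filterByExpr (minimum count 10; 5918 genes) were tested with edgeR 4.0.16 quasi-likelihood after TMM scaling, in R 4.3.3, and called where the Benjamini-Hochberg adjusted p was under 0.05. SE is the absolute log2 fold change over the root of F, so it restates the p. Alternatives used DESeq2 1.42.0, limma 3.58.1 (voom, and log2(TPM + 1)), other scalings and filters, a replicate block, and left-out libraries. Positions, exons and coding sequences come from GENCODE M21 (GRCm38, the assembly of mm10), matched by RefSeq accession for 30 of 30 members.

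Library values are given for called members, tested members with an unadjusted p below 0.05, members with non-overlapping groups, and the member with the highest TPM of each role; partners named are up to 4 per direction with the smallest p. Other members were described after their values were seen. Members and lists were chosen with earlier results of these data known. Libraries of a group differed by more than counting noise (chi-square per degree of freedom 14.8 to 39.3).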

Additional observations from a re-analysis of the deposited data

How the results depend on the processing

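Members called higher numbered 1 with all 6 libraries, 8 with DESeq2, 0 with the replicate block, 0 without both replicate 2 libraries and 0 to 1 when 1 library was left out; 0 were called lower in every setting run. Where edgeR called 0 members, 10 of 21 had an unadjusted p below 0.05 with the block and 8 of 22 without both replicate 2 libraries. Without WT replicate 1, 2 or 3 it was 7, 9 and 9 of 24, and without cKO replicate 1 it was 12 of 24. Over all tested genes 763 of 5918 did with the block and 740 of 6011 without both replicate 2 libraries. Without WT replicate 1, 2 or 3 it was 628 of 6689, 834 of 6415 and 573 of 6700. Without cKO replicate 1 it was 591 of 6795. Over all genes, 29 higher and 25 lower calls became 250 and 179 with DESeq2, 12 and 10 without a filter or with 1 CPM in 3 libraries, 11 and 8 with a term for the replicate 2 libraries, 1 and 0 with the replicate block, 0 and 0 without both replicate 2 libraries, and 0 to 28 and 0 to 14 with 1 library left out. Partners called higher and lower were 0 and 0, but 3 and 1 with DESeq2 and 1 higher (Cntn2, log2 fold change 4.24) with upper-quartile scaling. Tested members with lower, non-overlapping groups numbered 1, where 9.45% of all tested genes had such groups. They numbered 0 on the RLE scale, 0 on the TPM scale and 1 to 3 with 1 library left out. Of 21 tested members 17 kept their direction under all 17 alternatives. Sema6a, at 0.07, turned to -0.18 with upper-quartile scaling, -0.01 on log2(TPM + 1), and ran from -0.35 to 0.41 with 1 library left out. With 1 library left out Plxna1 ran from -0.05 to 2.38, Plxnb1 from -1.21 to 0.55 and Sema6d from -0.95 to 0.69. Some of these settings held fewer libraries or tested more genes, and the cause of the changes was not tested.

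Deviations from the group means correlated, over genes, with r of 0.05, 0.456 and 0.156 for replicate numbers 1, 2 and 3. The replicate 2 libraries had the highest value of all WT and cKO pairs, while WT replicate 1 correlated best with cKO replicate 3 (0.203). Whether the numbers mark pairs is therefore not settled by these values. With the replicate block Sema3c stood at 5.86 (edgeR adjusted p = 0.109). Depth limits the scarce genes, since 3 counts equal 2.41 to 4.24 CPM. The all-gene median log2 fold change, 0.069, became -0.22 under upper-quartile scaling, and that of the members went from 1.43 to 1.07.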
